A study of Chlamydomonas reinhardtii with 21 samples.

Results

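Genetic engineering of the unicellular green alga Chlamydomonas reinhardtii leans on a small set of strong promoters taken from its own nuclear genes. The transcripts of the genes that own these promoters were followed here across strains that differ in SRTA, a gene of the sirtuin family of histone deacetylases that is mutated in strains used for transgene expression. The members were 4 of the 17741 gene models in the deposited table, picked by identifier: HSP70A (Cre08.g372100), RBCS1 (Cre02.g120100), RBCS2 (Cre02.g120150) and PSAD (Cre05.g238332). All of them were measured above 0 in all 21 libraries and entered the tests.

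The libraries were made from poly(A) RNA of untreated cultures at mid-logarithmic growth in the light and fell into 6 groups in 2 batches. In batch 2 there were 3 cultures of UVM11-C9, 3 of UVM11-C1 and 3 of UVM11, and in batch 1 there were 4 of UVM4, 4 of UVM11 and 4 of Elow47. Elow47 has the wild-type SRTA gene, UVM4 carries the allele srta-2 and UVM11 the allele srta-1. UVM11-C9 and UVM11-C1 are UVM11 lines into which a FLAG-tagged wild-type SRTA copy under the native SRTA promoter was introduced together with a hygromycin resistance gene under the TUB2 promoter. Elow47 is a transformant of an arginine-requiring cell wall-deficient strain and carries ARG7 and the emetine resistance gene CRY1-1, this one behind a copy of the RBCS2 promoter, and every other strain descends from it. No strain sequenced here carried a reporter behind the PSAD promoter. UVM4 and UVM11 are each the product of ultraviolet mutagenesis, and UVM11-C9 and UVM11-C1 are each 1 transformant line, so that other changes in a line cannot be told apart from the state of SRTA. Abundance is given as the deposited FPKM, which the paper describes as fragments per length of gene and per number of reads. How the libraries were scaled against each other is not given in the sources used here.

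RBCS1 and RBCS2 encode the small subunit of Rubisco, the enzyme that fixes carbon dioxide in the chloroplast. Both proteins are made in the cytosol, imported and assembled with the plastid-encoded large subunit, and RBCS2 is the major source of the small subunit in this alga. PSAD encodes a stromal subunit of photosystem I at the docking site of ferredoxin. HSP70A encodes a cytosolic chaperone of the HSP70 family whose transcription is induced by heat and by light. Its promoter is often placed in front of the RBCS2 promoter in a tandem construct, because it makes the promoter behind it less prone to silencing.

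In the RefSeq annotation of the assembly of version 5.5, RBCS1 and RBCS2 are next to each other on chromosome 2. RBCS1 spans 6936683 to 6941921 and RBCS2 spans 6941968 to 6943439, with a gap of 46 bp between the models. PSAD lies on chromosome 5 from 2978242 to 2979235 and HSP70A on chromosome 8 from 2518227 to 2522077. RBCS1 and RBCS2 have closely similar coding sequences. How the counting program treated fragments that match both is not given in the sources used here, so the split of fragments between the pair is uncertain. Their summed FPKM is reported as well, but it is not free of that split if the lengths used for FPKM differ. On the genome the model of RBCS1 spans 5239 bp and that of RBCS2 1472 bp.

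The depth of the libraries is unknown in reads. Their relative depth, read from the steps between low values of 698 genes, ranged from 0.827 to 1.26, and the sum of FPKM over a library was 542464 to 617687. SRTA itself measured 3.32 to 3.66 FPKM in UVM11-C9, 4.84 to 5.63 FPKM in UVM11-C1, with 2.65 to 2.92 FPKM in UVM11 of batch 2, and 3.10 to 3.89 FPKM in UVM4, 3.28 to 3.71 FPKM in UVM11 of batch 1 and 2.65 to 3.99 FPKM in Elow47. The mutant alleles are still transcribed, so that this level bears on the added copy in the complemented lines and not on the mutations. For UVM11-C9 it is a weak check, as its values lay within the range of Elow47. UVM11 itself differed in SRTA between batch 2 and batch 1 by a log2 fold change of -0.31. The paper reports strong expression of the added allele in both lines, from the ratio of the alleles in cDNA and from the RNA sequencing.

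RBCS2 was the most abundant member. The cultures of UVM11-C9 had 6387, 6763 and 7247 FPKM, those of UVM11-C1 6414, 6720.0 and 7425 FPKM, and those of UVM11 grown in batch 2 had 5198, 5645 and 5797 FPKM. Batch 1 gave 8108, 8060.1, 8217 and 8109 FPKM for UVM4, 7270.0, 7793, 7787 and 7729 FPKM for UVM11, and 8669, 8664, 7633 and 8023 FPKM for Elow47. Every UVM11 culture of batch 2 lay below every culture of the other 5 groups. Among the group means, the neighbours in the order that did not overlap were UVM4 above UVM11 of batch 1, and UVM11-C9 above UVM11 of batch 2. RBCS2 had the second highest FPKM of all gene models in UVM11-C9, UVM4, UVM11 of batch 1 and Elow47, and the third highest in UVM11-C1 and UVM11 of batch 2. It accounted for 0.937% to 1.48% of the FPKM sum of a library.

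RBCS1 was present at a much lower level. The cultures of UVM11-C9 had 1116, 1316 and 1589.6 FPKM, those of UVM11-C1 909, 999 and 1184 FPKM, and those of UVM11 grown in batch 2 had 840.2, 1250.4 and 1096 FPKM. Batch 1 gave 1485, 1461, 1466 and 1428 FPKM for UVM4, 1385, 1377, 1359.7 and 1341 FPKM for UVM11, and 1604, 1465, 1206 and 1378 FPKM for Elow47. When the 6 groups were ordered by their means, each group overlapped the next lower one, so that no step of that order stood clear of the spread. RBCS1 ranked between 77 and 136 in the single libraries.

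PSAD was the most even of the 4 genes. The cultures of UVM11-C9 had 2806, 3085 and 3374 FPKM, those of UVM11-C1 3445, 3558 and 3901 FPKM, and those of UVM11 grown in batch 2 had 3040.1, 3317 and 3355 FPKM. Batch 1 gave 3073, 3163, 3255 and 3092 FPKM for UVM4, 2978, 3152, 3133 and 3157 FPKM for UVM11, and 3167, 3137, 3153 and 3006 FPKM for Elow47. UVM11-C1 stood above all other groups without overlap, and the other 5 groups overlapped one after the other. The highest value of PSAD was 1.39 times the lowest, while this factor was 1.67 for RBCS2, 1.91 for RBCS1 and 2.00 for HSP70A. PSAD ranked between 13 and 20 in the single libraries.

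HSP70A was the least abundant member, with ranks of 155 to 237. The cultures of UVM11-C9 had 621, 716 and 652 FPKM, those of UVM11-C1 424, 395 and 358 FPKM, and those of UVM11 grown in batch 2 had 402, 444 and 467 FPKM. Batch 1 gave 464, 465, 479.5 and 449 FPKM for UVM4, 434, 421, 438 and 448 FPKM for UVM11, and 503, 469, 436 and 455 FPKM for Elow47. The UVM11-C9 cultures stood clear above the other 18 libraries, which overlapped from group to group. Together the 4 genes made up 1.71% to 2.35% of the FPKM sum of a library.

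**Figure D1:**
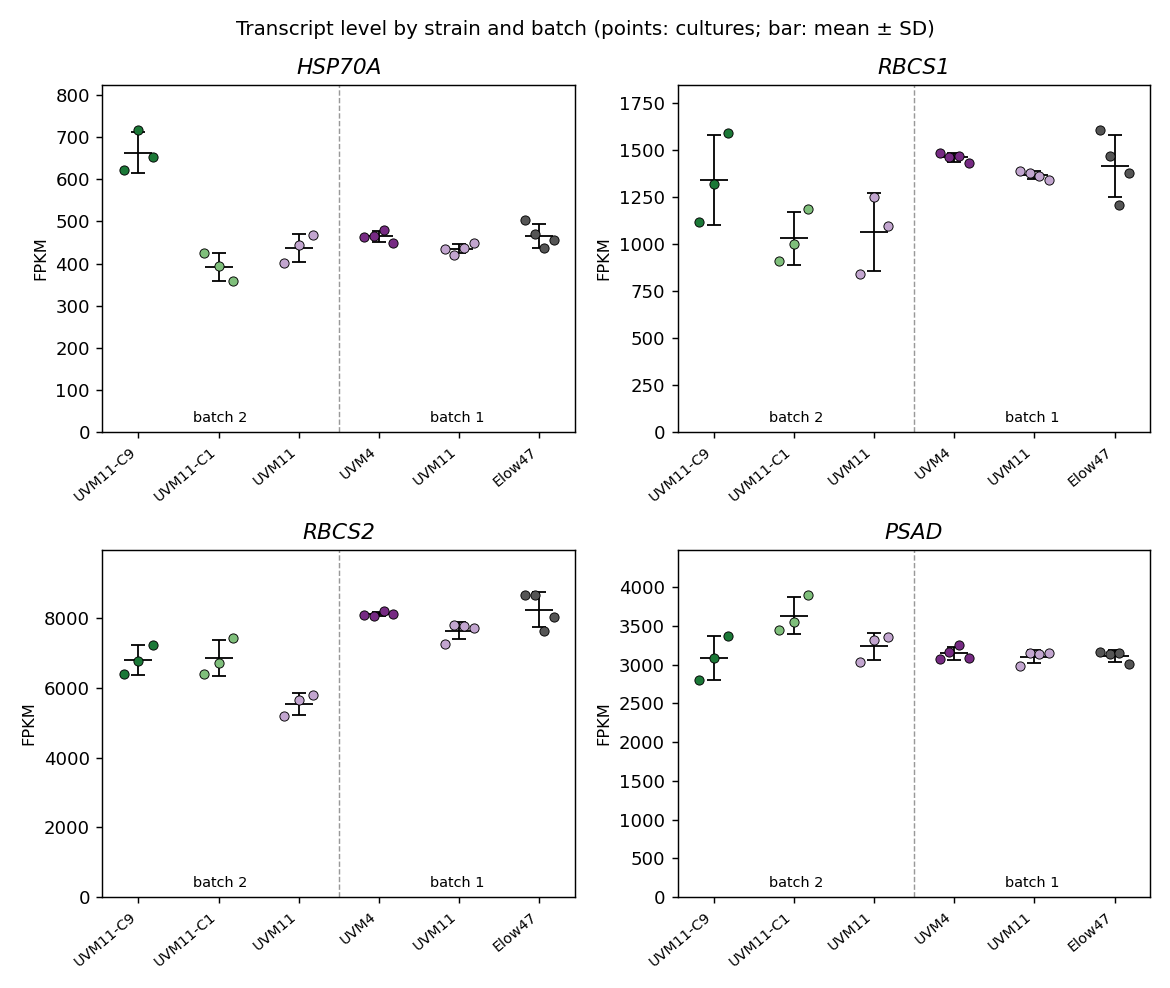
FPKM of HSP70A, RBCS1, RBCS2 and PSAD (vertical axes, each from 0) in each culture (points) by strain and batch, with the mean and SD of each group as bars. HSP70A is highest in the 3 UVM11-C9 cultures (621 to 716 FPKM), and RBCS2 is lowest in the 3 UVM11 cultures of batch 2 (5198 to 5797 FPKM).

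The members differed in how far replicate cultures lay apart. The SD of log2(FPKM + 0.1) within groups was 0.18 for RBCS1, against 0.08 for RBCS2, 0.07 for PSAD and 0.08 for HSP70A. The median was 0.09 over the 100 most abundant gene models, and RBCS1 exceeded 99.0% of these. The spread of RBCS1 was itself uneven, with a coefficient of variation of 17.7% in UVM11-C9, 13.6% in UVM11-C1 and 19.5% in UVM11 of batch 2, against 1.64% in UVM4, 1.43% in UVM11 of batch 1 and 11.8% in Elow47. The model over all groups takes 1 spread for RBCS1, which is below that of batch 2 and above that of UVM4 and of UVM11 in batch 1.

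**Figure D2:**
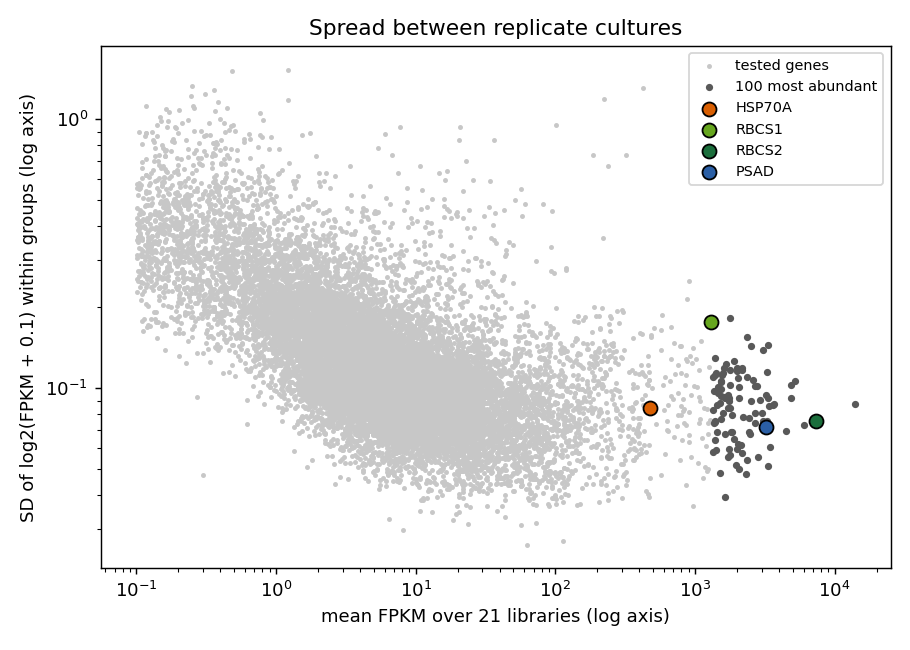
SD of log2(FPKM + 0.1) within groups against the mean FPKM over 21 libraries, both on log axes, for the tested genes (grey), the 100 most abundant gene models (dark grey) and the 4 members (coloured). RBCS1, at an SD of 0.18, lies above nearly all of the most abundant gene models, while RBCS2, PSAD and HSP70A lie among genes of their own abundance.

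The first question was whether loss of SRTA function went with another level of the native genes. In UVM4 against Elow47, 0 of the 4 genes passed the test, which was limma on log2(FPKM + 0.1) over 15425 genes with a Benjamini-Hochberg adjusted p-value below 0.05. Over all genes tested, 8.39% passed in this comparison. RBCS2 averaged 8123 ± 66.2 FPKM in UVM4 and 8247 ± 509.8 FPKM in Elow47 (SD, n = 4 each). The log2 fold change of RBCS2 was -0.02 with a 95% confidence interval of -0.14 to 0.10, and that of RBCS1 was 0.05 with an interval of -0.18 to 0.29. PSAD averaged 3146 ± 82.7 FPKM in UVM4 and 3116 ± 74.1 FPKM in Elow47 (SD, n = 4 each), with a log2 fold change of 0.01 (-0.10 to 0.13). HSP70A averaged 464 ± 12.3 FPKM in UVM4 and 466 ± 28.1 FPKM in Elow47 (SD, n = 4 each), with a log2 fold change of -0.0031 (-0.12 to 0.12). All 4 genes overlapped between the strains. The widest interval, that of RBCS1, ran from a fold change of 0.884 to 1.22. None of the 4 genes had an unadjusted p-value below 0.05, the lowest being 0.632.

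In UVM11 against Elow47 of batch 1, again 0 of the 4 genes passed the test, beside 7.86% of all genes tested. The log2 fold change was -0.11 for RBCS2 (95% confidence interval -0.23 to 0.01, adjusted p = 0.298) and -0.10 for HSP70A (-0.22 to 0.02, adjusted p = 0.357). It was -0.04 for RBCS1 (-0.27 to 0.19) and -0.01 for PSAD (-0.12 to 0.11). All 4 genes overlapped between UVM11 and Elow47, and their lowest unadjusted p-value was 0.0787. In both mutants the 100 most abundant gene models also held few calls, 0 in UVM4 and 2 in UVM11, both lower than in Elow47.

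Between UVM4 and UVM11 of batch 1, 0 of the 4 genes passed, beside 9.55% of all genes tested. By the same test 3571 genes had an unadjusted p-value below 0.05, and none of the 4 members was among them. RBCS1, RBCS2 and HSP70A did not overlap between the mutants, with all UVM4 cultures above all UVM11 cultures. The share of all genes without overlap was not computed in this or any other comparison, so that overlap is given as description only. RBCS1 averaged 1459.9 ± 23.9 FPKM in UVM4 and 1366 ± 19.6 FPKM in UVM11 (SD, n = 4 each), a log2 fold change of 0.10 (SE 0.11, adjusted p = 0.656). A model of these 2 groups alone, in which the spread of the other groups takes no part, gave an adjusted p = 0.0296 for RBCS1. The log2 fold changes of RBCS2 and HSP70A were both 0.09, with adjusted p-values of 0.390 and 0.355. PSAD overlapped, with a log2 fold change of 0.02.

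The second question was how the genes stood in UVM11 to which a wild-type SRTA copy had been returned. In UVM11-C1 against UVM11 of batch 2, RBCS2 rose and was the only one of the 4 genes to pass the test, beside 18.4% of all genes tested. RBCS2 averaged 6853 ± 519 FPKM in UVM11-C1, against 5547 ± 312 FPKM in UVM11 (SD, n = 3 each), a fold change of 1.23 and a log2 fold change of 0.30 (SE 0.07, adjusted p = 0.00380). All UVM11-C1 cultures exceeded all UVM11 cultures. The call was lost when only these 2 groups (adjusted p = 0.115) or only batch 2 (adjusted p = 0.0597) entered the model, and quantile normalization removed the difference, as RBCS2 held the same rank in both groups.

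PSAD, too, was higher in every UVM11-C1 culture than in every UVM11 culture, at 3635 ± 238 FPKM in UVM11-C1, against 3237 ± 172 FPKM in UVM11 (SD, n = 3 each). Its log2 fold change of 0.17 (SE 0.06) did not pass, with an adjusted p = 0.0713. HSP70A averaged 393 ± 33.1 FPKM in UVM11-C1, against 438 ± 33.0 FPKM in UVM11 (SD, n = 3 each), a log2 fold change of -0.16 (SE 0.07, adjusted p = 0.109). It passed, at a log2 fold change of -0.23, when each value was divided by the FPKM sum of its library (adjusted p = 0.00490) and after quantile normalization. PSAD passed without UVM11-C1 culture a (adjusted p = 0.0399) or without UVM11-C9 culture 1 or 3 (0.0458 and 0.0475), and HSP70A without UVM11-C1 culture a (0.0384) or UVM11 culture 5 (0.0416). RBCS1 overlapped, with a log2 fold change of -0.03 (95% confidence interval -0.30 to 0.24). SRTA was higher in UVM11-C1 than in UVM11 by 0.87 on the log2 scale (adjusted p = 1.82e-05).

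In UVM11-C9 against UVM11 of batch 2, 3 of the 4 genes passed, all of them higher in UVM11-C9. Of all genes tested 47.5% passed in this comparison, so that being called sets a gene little apart here. HSP70A had the largest difference of the members, with 663 ± 48.2 FPKM in UVM11-C9, against 438 ± 33.0 FPKM in UVM11 (SD, n = 3 each), a fold change of 1.52. The log2 fold change of HSP70A was 0.60 (SE 0.07, adjusted p = 5.95e-07), and it lay between 0.54 and 0.65 when any 1 library was left out. RBCS2 averaged 6799 ± 431 FPKM in UVM11-C9, against 5547 ± 312 FPKM in UVM11 (SD, n = 3 each), a log2 fold change of 0.29 (SE 0.07, adjusted p = 0.00133). Neither gene overlapped between the strains.

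RBCS1 averaged 1341 ± 238 FPKM in UVM11-C9, against 1062 ± 207 FPKM in UVM11 (SD, n = 3 each), and the strains overlapped. Its log2 fold change was 0.34 (SE 0.13, adjusted p = 0.0353). Without UVM11 culture 5, which had the lowest RBCS1 value of all libraries, the log2 fold change was 0.18 (adjusted p = 0.253), and without UVM11-C9 culture 3 it was 0.21 (0.215). The call was also lost without UVM11-C9 culture 2 (0.0684), in a model of the 2 groups (0.121), in a model of batch 2 (0.119) and with no filter on low values (0.0634). PSAD averaged 3088 ± 284 FPKM in UVM11-C9, against 3237 ± 172 FPKM in UVM11 (SD, n = 3 each), a log2 fold change of -0.07 (95% confidence interval -0.20 to 0.06, adjusted p = 0.376). Of the 100 most abundant gene models, 8 were higher and 33 lower in UVM11-C9 by the same test, with a median log2 fold change of -0.10. SRTA was higher in UVM11-C9 than in UVM11 by 0.30 on the log2 scale (adjusted p = 0.0304). Between UVM11 of batch 2 and of batch 1 it differed by -0.31 in the same test (adjusted p = 0.0146).

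The complemented lines share the UVM11 cultures as their control, so the lines were also compared with each other. In UVM11-C9 against UVM11-C1, HSP70A and RBCS1 were higher and PSAD was lower by the test, beside 48.2% of all genes tested. HSP70A differed by a log2 fold change of 0.76 (SE 0.07, adjusted p = 3.25e-08), a fold change of 1.69, with no overlap. PSAD differed by -0.24 (SE 0.06, adjusted p = 0.00421), also with no overlap, and RBCS1 by 0.37 (SE 0.13, adjusted p = 0.0218) with overlap. RBCS2 was at nearly the same level in UVM11-C9 and UVM11-C1, with a log2 fold change of -0.01 and a 95% confidence interval of -0.15 to 0.13. The PSAD and RBCS1 calls were lost in the model of the 2 groups (adjusted p = 0.0876 and 0.0673) and in that of batch 2 (0.0575 and 0.0894), and PSAD also after quantile normalization, at a log2 fold change of -0.02 (0.667). The RBCS1 call was further lost without UVM11-C1 culture a (0.103) or b (0.0613) and without UVM11-C9 culture 3, where the log2 fold change was 0.24 (0.149).

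**Figure D3:**
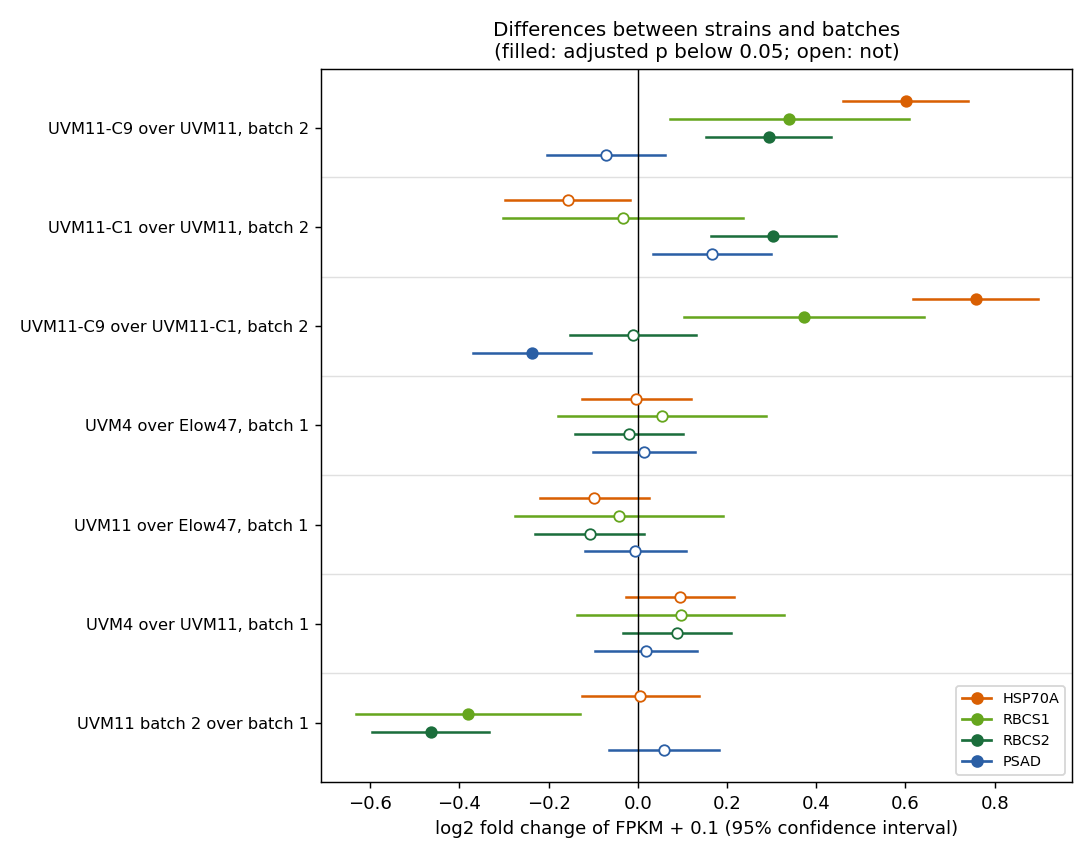
Log2 fold change of FPKM + 0.1 (horizontal axis) with its 95% confidence interval for each member in 7 comparisons, with filled points where the adjusted p-value was below 0.05 and open points elsewhere. All points of the 3 comparisons within batch 1 are open, and HSP70A in UVM11-C9 lies farthest to the right, at 0.60 over UVM11 and 0.76 over UVM11-C1.

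UVM11 was grown in both batches and shows how far the members moved with no change of strain. In UVM11 of batch 2 against UVM11 of batch 1, RBCS2 and RBCS1 were lower, beside 56% of all genes tested that passed. RBCS2 averaged 5547 ± 312 FPKM in batch 2 (SD, n = 3) and 7645 ± 251 FPKM in batch 1 (SD, n = 4), and fell by 0.46 on the log2 scale (SE 0.06, adjusted p = 3.86e-06). RBCS1 averaged 1062 ± 207 FPKM in batch 2 (SD, n = 3) and 1366 ± 19.6 FPKM in batch 1 (SD, n = 4), and fell by 0.38 (SE 0.12, adjusted p = 0.0109). Without UVM11 culture 5 of batch 2 the difference of RBCS1 was -0.22 (adjusted p = 0.120). PSAD and HSP70A differed by 0.06 and 0.01, with 95% confidence intervals of -0.06 to 0.18 and -0.13 to 0.14. The gap of RBCS2 between the batches of 1 strain was thus larger than any of its differences between strains within a batch. What differed between the batches is not given in the sources used here, and batch and culture conditions cannot be told apart.

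The difference of UVM11 from a strain with wild-type SRTA was then compared between the batches. That strain was Elow47 in batch 1 and a complemented line in batch 2, so that batch and strain cannot be told apart here. For RBCS2 the log2 value of the difference was -0.11 against Elow47 in batch 1, -0.30 against UVM11-C1 and -0.29 against UVM11-C9 in batch 2. The differences between batches were 0.20 with UVM11-C1 (SE 0.09, adjusted p = 0.149) and 0.19 with UVM11-C9 (SE 0.09, adjusted p = 0.113), and neither passed this test, which was chosen after the data were seen. For HSP70A the same differences were -0.10 against Elow47 in batch 1, 0.16 against UVM11-C1 and -0.60 against UVM11-C9 in batch 2. For HSP70A the value with Elow47 differed from that with UVM11-C9 by 0.50 (SE 0.09, adjusted p = 0.000219), beside 35% of all genes tested. It differed from that with UVM11-C1 by -0.25 (SE 0.09, adjusted p = 0.0623), beside 13.5%. RBCS1 and PSAD passed in neither, with adjusted p-values of 0.185 to 0.813.

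No member reached the size that the study required of a differentially expressed gene, an absolute log2 fold change above 1 at an adjusted p-value below 0.01. Of all genes tested, 1.12% did so in UVM4 against Elow47, 1.4% in UVM11 against Elow47, 0.856% in UVM4 against UVM11, 3.59% in UVM11-C9 against UVM11, 1.24% in UVM11-C1 against UVM11, 3.67% between the complemented lines and 5.23% between the batches of UVM11.

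The Rubisco pair was also viewed as a ratio within each library, in which the depth of the library cancels. RBCS2 over RBCS1 was 5.72, 5.14 and 4.56 in UVM11-C9, 7.06, 6.73 and 6.27 in UVM11-C1, and 6.19, 4.51 and 5.29 in UVM11 of batch 2. The ratio of batch 1 averaged 5.57 ± 0.0971 in UVM4, 5.60 ± 0.238 in UVM11 and 5.87 ± 0.378 in Elow47 (SD, n = 4 each). UVM11-C1 had the highest ratios of batch 2 and overlapped neither UVM11 nor UVM11-C9. The exact two-sided permutation test gave p = 0.1 for UVM11-C1 against either, the smallest that 3 against 3 cultures allow, and 0.233 after adjustment over 14 tests of the ratio and the sum.

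The summed FPKM of RBCS1 and RBCS2 was 7504, 8079 and 8837 in UVM11-C9, 7323, 7719 and 8609 in UVM11-C1, and 6038, 6896 and 6894 in UVM11 of batch 2. Both complemented lines stood above UVM11 without overlap, by 0.30 (SE 0.09) in UVM11-C9 and 0.25 (SE 0.09) in UVM11-C1 on the log2 scale. In batch 1 the sum was 9593, 9521, 9682 and 9537 in UVM4, 8655, 9170.0, 9146 and 9069.8 in UVM11, and 10272, 10129, 8839 and 9401 in Elow47. UVM4 exceeded UVM11 without overlap by 0.09 on the log2 scale (SE 0.02, exact permutation p = 0.0286, the smallest possible for 4 against 4). UVM11 of batch 2 was below UVM11 of batch 1 by a log2 difference of -0.45 (SE 0.07, exact permutation p = 0.0571, the smallest possible). The adjusted p was 0.233 in each of these 4 comparisons of the sum and 0.3 or higher in the remaining ones. None passed, but the group sizes fixed this in advance. Even with every p at its smallest possible value, no test of the ratio or the sum could reach an adjusted p below 0.05. No conclusion is therefore drawn from these adjusted values.

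The ratio of RBCS2 to PSAD, the promoter genes of the resistance marker and of the study's reporter, was chosen after the values were seen and is given with no test. It was 2.28, 2.19 and 2.15 in UVM11-C9, 1.86, 1.89 and 1.90 in UVM11-C1, and 1.71, 1.70 and 1.73 in UVM11 of batch 2. The cultures of batch 1 gave 2.64, 2.55, 2.52 and 2.62 in UVM4, 2.44, 2.47, 2.49 and 2.45 in UVM11, and 2.74, 2.76, 2.42 and 2.67 in Elow47. The 3 groups of batch 2 did not overlap each other, and all of their ratios were below all ratios of batch 1.

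**Figure D4:**
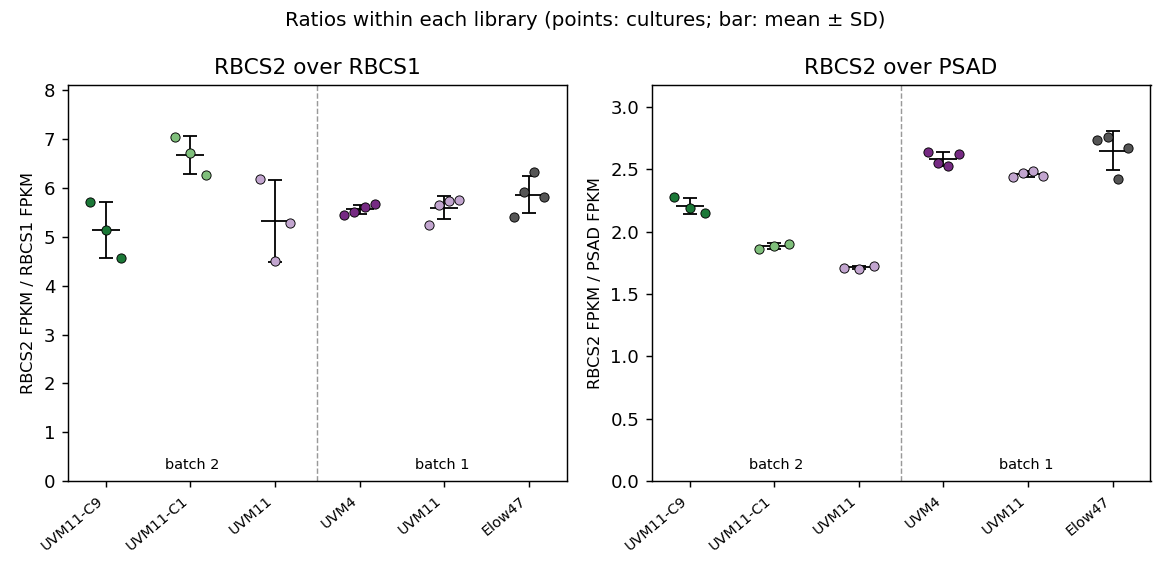
FPKM of RBCS2 divided by that of RBCS1 (left) and of PSAD (right) in each culture (points) by strain and batch, with the mean and SD of each group as bars and axes from 0. RBCS2 over PSAD averages 2.21 in UVM11-C9, 1.88 in UVM11-C1 and 1.71 in UVM11 of batch 2, and RBCS2 over RBCS1 is highest in UVM11-C1, at 6.68.

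The gene models next to the members did not share their level. Cre02.g120050, which ends 584 bp before RBCS1, ranged from 4.86 to 7.07 FPKM and passed the test in no comparison, with the lowest adjusted p = 0.385. Cre02.g120200, which starts 46 bp after RBCS2, ranged from 0.0211 to 0.719 FPKM. It averaged 0.540 FPKM in UVM11-C1, against 0.117 FPKM in UVM11 of batch 2, a log2 fold change of 1.56 (SE 0.32, adjusted p = 0.00230). In UVM11-C9, where RBCS2 averaged 6799 FPKM, it averaged 0.0936 FPKM. Cre05.g238322, which ends 1867 bp before PSAD, was higher in UVM11-C9 at 22.5 FPKM than in UVM11 of batch 2 at 17.1 FPKM (log2 fold change 0.40, SE 0.08, adjusted p = 0.000299). PSAD stood at -0.07 in the same comparison. The models after PSAD and HSP70A, Cre05.g238343 and Cre08.g372150, averaged 0.972 and 0.0229 FPKM over all libraries. Cre08.g372050, which ends 616 bp before HSP70A, averaged 4.20 FPKM in UVM11-C9 and 4.12 FPKM in UVM11 of batch 2 (log2 fold change 0.03, adjusted p = 0.826), where HSP70A was higher by 0.60. It passed the test in UVM4 against UVM11 of batch 1 and in UVM11 of batch 2 against UVM11 of batch 1, in both with a log2 fold change of -0.28 (SE 0.09, adjusted p = 0.0434 and 0.0146), where HSP70A did not pass.

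The members did not move as a group. After the mean of each batch was subtracted, the Pearson correlation over 21 libraries was 0.64 between HSP70A and RBCS1, 0.59 between RBCS1 and RBCS2, 0.46 between RBCS2 and PSAD and 0.29 between HSP70A and RBCS2. It was 0.09 between RBCS1 and PSAD and -0.55 between HSP70A and PSAD. Without that subtraction the values were 0.35 for HSP70A and RBCS1, 0.79 for RBCS1 and RBCS2, -0.10 for RBCS2 and PSAD, 0.01 for HSP70A and RBCS2, -0.21 for RBCS1 and PSAD and -0.41 for HSP70A and PSAD, so that both pairs of a Rubisco gene with PSAD changed sign. For RBCS1, 90.4% of the 13508 genes with a mean above 1 FPKM were less alike to it than RBCS2. These values describe libraries that share strains and batches.

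By the same measure, the genes most like HSP70A were Cre10.g429100, Cre09.g386400 and Cre03.g146487, each at a correlation of 0.96. Cre09.g386400 was higher in UVM11-C9 than in UVM11 of batch 2 by a log2 fold change of 0.62 (SE 0.06). The genes named in this paragraph were picked by likeness over the same libraries, so that their differences between strains follow in part from that choice. Most like PSAD were Cre07.g334550 (0.96), Cre13.g562900 (0.96) and Cre07.g344950 (0.95), of which Cre07.g334550 was lower in UVM11-C9 than in UVM11-C1, with a log2 fold change of -0.39 (SE 0.09). Most like RBCS2 were Cre10.g436550 (0.90), Cre11.g467689 (0.89) and Cre03.g145887 (0.89). Without subtraction of the batch means these correlations with RBCS2 were 0.24, 0.50 and 0.11, and none of the 3 genes passed the test between the batches of UVM11 (adjusted p = 0.230 to 0.927). Most like RBCS1 were Cre06.g252200 (0.93), Cre17.g722750 (0.91) and Cre09.g402293 (0.91), at 0.37, 0.94 and 0.89 without subtraction. The 3 genes most like HSP70A stood at 0.93, 0.93 and 0.80 without it, and those most like PSAD at 0.96, 0.81 and 0.87.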

How the data were processed

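Poly(A) RNA of 21 cultures was sequenced. The authors aligned the reads with STAR (version 2.4.0j, alignIntronMax 3000) to version 5 of the genome, computed FPKM per gene model of version 5.5 with cuffdiff (version 2.2.1) and deposited the FPKM of every gene in each culture. The labels give poly(A) RNA as the molecule but name a stranded kit for total RNA, while the paper names a kit for mRNA. Read counts were not used here. Columns were assigned by their labels, and the 3 columns of UVM11-C1, whose names differ from those of UVM11 in the case of a letter, are numbered 1 to 3 but could not be tied to single samples by label, and are named cultures a, b and c in the order of those numbers. No pair of libraries shared more than 0.104% of identical values.

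The 15425 genes with a mean above 0.1 FPKM were tested, and 2316 were not, on log2(FPKM + 0.1) with limma (version 3.58.1, R 4.3.3, trend of variance), in 1 model of 6 groups with 15 residual degrees of freedom. The two-sided p-values were adjusted over all genes (Benjamini-Hochberg), and fold changes are on the log2(FPKM + 0.1) scale. The model was tested on simulated data. Of simulated log2 changes of 0.3 it recovered 39% in UVM4 against Elow47 and 17.5% in UVM11-C1 against UVM11. Of changes of 1 it recovered 95.5% and 94%. Differences of the size of most of those seen in the members can thus be missed. Exact permutation tests compared the ratio and the sum of RBCS1 and RBCS2. Python (3.11.15), numpy (2.4.6), pandas (2.3.3) and scipy (1.17.1) were used. Precision is given only as the spread between cultures, and p-values measure the spread between these cultures, which may be partly technical.

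The members and lists were chosen with earlier results of these data known. Genes named were the members, their neighbours, SRTA and the 3 genes most like each member by correlation. Further lists of genes of the same pathways are not reported, because the sources used here do not name their identifiers. Positions come from RefSeq, which held 17738 of the 17741 gene models. Alternatives were pseudocounts of 1 and 0.01, a filter at 1 FPKM or none, quantile normalization, median-of-ratios scaling, smaller models, a replicate block and leaving out each library. Dividing by the FPKM sum, models of 1 batch and a block in batch 2 were added after the data were seen.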

Additional observations from a re-analysis of the deposited data

Results flagged for a closer look

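In UVM11 of batch 1, 1 culture stood apart from the others of its group as the lowest in both RBCS2, at 7270.0 FPKM, and PSAD, at 2978 FPKM. Its library also had the lowest FPKM sum of all, 542464. As a share of that sum RBCS2 made up 1.34%, against 1.36% to 1.39% in the others of the group. PSAD made up 0.549%, against 0.555% to 0.563%. These were 2 flags among 21 sets of 4 cultures checked, where chance flags about 1 in 20. The sets include sums and ratios of the same genes and are not independent.

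The complemented lines UVM11-C9 and UVM11-C1 differed by the test of the difference itself in HSP70A, by a log2 fold change of 0.76, in RBCS1, by 0.37, and in PSAD, by -0.24. For HSP70A the log2 value of UVM11 minus Elow47 was -0.10 in batch 1, and that of UVM11 minus UVM11-C9 was -0.60 in batch 2. These 2 values lay 0.50 apart, with the larger gap between strains in batch 2.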

How the results depend on the processing

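Pseudocounts of 1 and 0.01, a filter at 1 FPKM and median-of-ratios scaling changed no direction and no call of a member. These settings could move the members little. Their values ran from 358 to 8669 FPKM, and the median-of-ratios factors of the deposited values already lay between 0.992 and 1.009. HSP70A in UVM11-C9 against UVM11 and UVM11-C1 kept its calls under every alternative, while each RBCS1 call was lost under at least 1. RBCS2 above UVM11 in UVM11-C9 and RBCS2 below batch 1 in UVM11 of batch 2 kept their calls under every alternative except quantile normalization, which cannot test them. With no filter the log2 fold change of RBCS1 in UVM11-C9 against UVM11 of batch 2 was 0.34 and no longer passed. Quantile normalization gives RBCS2 the common value of its rank, so that the rank alone fixes the outcome. Its log2 fold change became 0 in UVM4 against Elow47, in UVM11 against Elow47, in UVM4 against UVM11 and for UVM11-C1 over UVM11. Where rank 2 met rank 3, it became 0.44 for UVM11-C9 over UVM11 or UVM11-C1, and -0.44 for UVM11 between batches. RBCS2 thus passed between the complemented lines (adjusted p = 1.51e-11), from which no conclusion is drawn. After quantile normalization PSAD stood at 0.056 in UVM11 against Elow47 and -0.029 in UVM4 against UVM11. PSAD stood at 0.045 in UVM11-C9 against UVM11, -0.021 in UVM11-C9 against UVM11-C1 and -0.049 in UVM11 between batches. HSP70A stood at -0.23 in UVM11-C1 against UVM11, where it passed. The cause of these shifts of PSAD and HSP70A was not tested.

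With only the 2 groups compared in the model, which leaves fewer degrees of freedom, RBCS1 passed in UVM4 against UVM11 at 0.096. The calls of RBCS2 in UVM11-C1 against UVM11 at 0.30, of RBCS1 in UVM11-C9 against UVM11 at 0.34, and of RBCS1 at 0.37 and PSAD at -0.24 in UVM11-C9 against UVM11-C1 were lost, and so they were in a model of batch 2 alone, at the same values. The number of the 4 genes passing was then 1 in UVM4 against UVM11 with the 2 groups, and with either model 0 for UVM11-C1 over UVM11 and 1 in UVM11-C9 against UVM11-C1. Of all genes tested, 16.8% passed in UVM4 against UVM11 with the 2 groups in the model. For UVM11-C1 over UVM11 the share was 5.6% with the 2 groups and 10.8% with batch 2, for UVM11-C9 over UVM11 44.7% and 41.2%, and for UVM11-C9 over UVM11-C1 40.2% and 42.2%. Division by the FPKM sum of the library turned differences near 0, to 0.0064 for HSP70A in UVM4 against Elow47, 0.0082 for RBCS1 and 0.045 for PSAD in UVM11 against Elow47, -0.022 for PSAD in UVM4 against UVM11, 0.074 for RBCS2 in UVM11-C9 against UVM11-C1 and -0.040 for HSP70A in UVM11 between batches. It let HSP70A pass in UVM11-C1 against UVM11 at -0.23, so that 2 genes passed there. The share of all genes passing after this division was not counted, and it was 18.4% without the division.

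With each library left out in turn, the log2 fold changes in UVM4 against Elow47 ranged from -0.019 to 0.12 for RBCS1, -0.056 to 0.0049 for RBCS2, -0.0034 to 0.025 for PSAD and -0.034 to 0.034 for HSP70A. In UVM11 against Elow47 they ranged from -0.12 to 0.022 for RBCS1 and -0.022 to 0.015 for PSAD, and in UVM4 against UVM11 from -0.0010 to 0.030 for PSAD. In UVM11-C1 against UVM11 the ranges were -0.19 to 0.094 for RBCS1, 0.11 to 0.20 for PSAD and -0.22 to -0.093 for HSP70A, with 1 to 3 genes passing. They were 0.18 to 0.47 for RBCS1 in UVM11-C9 against UVM11, and 0.24 to 0.50 for RBCS1 and -0.058 to 0.049 for RBCS2 in UVM11-C9 against UVM11-C1. Between the batches of UVM11 they were -0.51 to -0.22 for RBCS1 and -0.043 to 0.066 for HSP70A, with 1 to 2 genes passing. The shares of all genes passing with a library left out were not counted. With all libraries these shares were 18.4% in UVM11-C1 against UVM11 and 56% between the batches of UVM11. The log2 ratio of RBCS2 to RBCS1 ranged from -0.039 to 0.0062 in UVM4 against UVM11, -0.16 to 0.067 in UVM11-C9 against UVM11 and -0.20 to 0.032 in UVM11 between batches. The log2 sum ranged from -0.051 to 0.021 in UVM4 against Elow47 and -0.015 to 0.11 in UVM11-C9 against UVM11-C1.

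Cultures of batch 1 share replicate numbers. The deviations of same-numbered cultures correlated at -0.22 to 0.26, above 0.1 in 2 of 12 pairs. Those of different numbers correlated at -0.32 to 0.35, above 0.1 in 8 of 36 pairs. This does not settle whether cultures of a number were paired. With the replicate block 1195 in place of 1294 genes passed in UVM4 against Elow47, 1164 in place of 1212 in UVM11 against Elow47 and 1359 in place of 1473 in UVM4 against UVM11, and the log2 fold change of RBCS2 in UVM11 against Elow47 stayed at -0.11 with no member called. In batch 2 UVM11 shares no number with the complemented lines, whose columns are both numbered 1 to 3. Same-numbered columns of UVM11-C9 and UVM11-C1 correlated at 0.11, 0.07 and 0.19 in their deviations, and columns of different numbers at -0.15 to 0.07. Each UVM11-C9 culture correlated best with its own number, while UVM11-C1 culture b correlated slightly better with another number than its own. In each group of batch 2, RBCS2 and PSAD rose in the order of the columns. A pairing cannot be settled from so few cultures, and the model of 6 groups takes none. With a replicate block of the column numbers, added after the data were seen, 6307 in place of 7436 genes passed in UVM11-C9 against UVM11-C1, and 2 of the members. HSP70A (0.76, adjusted p = 0.000919) and RBCS1 (0.37, adjusted p = 0.00635) passed, and PSAD (-0.24, adjusted p = 0.0569) did not. The depth in reads is unknown, so counting error was not separated from the spread between cultures.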
